A study of Oryza sativa Japonica Group with 30 samples.

Results

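The genes described here are 7 rice genes of auxin supply and response in the filling grain, chosen by their locus identifiers. Of them, 5 are for the steps from tryptophan to auxin, 1 is reported to release stored auxin and 1 encodes a repressor of the auxin response. They are the flavin monooxygenase genes YUC9, YUC11 and YUC12, the aminotransferase genes TAR1 and TAR2 (also named FIB), the hydrolase gene TGW6 and the repressor gene IAA29. All 7 were found among 55801 gene identifiers. RNA came from whole unripe caryopses (young grains still in their fruit coat) of Oryza sativa Japonica, taken 7 days after pollination, in 30 samples that form 10 groups of 3. The 5 genotypes comprised wild-type ZH11, lines OX-ONAC127 and OX-ONAC129 that overexpress 1 of these NAC transcription factor genes, and the mutant lines CR-ONAC127 and CR-ONAC129. Each genotype was grown in paddy fields under natural long days in 2 conditions. Plants under natural heat stress met more than 35 °C for roughly 6 h daily, with highs of about 40 °C, and normally cultivated plants had 3 days above 35 °C and a daytime mean of about 30 °C. The labels used here do not give the promoter of the overexpressing lines, the number of lines or clones behind a genotype, or the number of plants behind a sample.

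Auxin (indole-3-acetic acid) is made in plants mainly in a pair of steps. Aminotransferases of the TAA1/TAR family turn tryptophan into indole-3-pyruvate, and YUCCA flavin monooxygenases turn that into auxin. In cereals auxin accumulates in the endosperm as the grain fills, and in rice YUC9, YUC11 and TAR1 are known as genes active in the grain. Auxin is read by TIR1/AFB receptors, which trigger the breakdown of Aux/IAA repressors such as IAA29 and so free the auxin response factors (ARFs).

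The measurement analysed here was 1 value per gene: its normalised read count, averaged over all 30 libraries. It has no value per sample, no error between samples and no comparison of genotypes or conditions, so no change with heat or with either NAC gene can be stated for any of these genes. In whole caryopses, fewer cells of a type and less RNA per cell cannot be told apart. The values are read counts and are not divided by gene length, because no transcript lengths were at hand. An order given below is an order of read counts, which may differ from the order of transcript numbers. Endosperm markers (GBSSI, GluA1, GluA2) had between 39906 and 61910 normalised counts, and fruit coat markers (LHCB1, RBCS2, RBCS3) between 1352 and 4669. The genes listed as embryo markers, Ole16, Ole18 and OSH1, had 24670, 21160 and 15.3. Whether the Ole16 and Ole18 reads came from the embryo alone was not tested.

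The 7 genes together had 16226 normalised counts, 0.140% of all reads, and 93.7% of these belonged to YUC9 and TAR1. In read counts the order was YUC9, TAR1, TAR2, IAA29, YUC11, YUC12 and TGW6. The median of the 7 genes was 346 normalised counts, against 1.23 over all gene identifiers and 15.9 over the 40831 genes above 0. Of the 7, 6 reached 10 normalised counts, 4 reached 100 and 2 reached 1000. Over all identifiers 39.5%, 21.4% and 3.78% did so. The genes were named for their known place in this pathway, with earlier results of these data known. High counts were therefore likely in advance.

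The aminotransferase step was read from both TAR genes listed, most of all from TAR1. TAR1 (LOC_Os05g07720, chromosome 5) had 4713 normalised counts, rank 368 of all genes and higher than 99.3% of them. TAR2 (LOC_Os01g07500, chromosome 1), known from the fish bone mutant of rice with its altered leaves and organs, had 616, higher than 93.8% of all genes. TAR1 held 88.4% of the reads of this pair. Both genes were thus well read, and TAR1 was among the highest 1000 genes of the caryopsis by read count.

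The YUCCA step was carried almost wholly by 1 gene in read counts. YUC9 (LOC_Os01g16714, chromosome 1) had 10488 normalised counts, rank 130 of 55801. YUC11 (LOC_Os12g08780, chromosome 12), a gene known in rice as a target of the endosperm factor NF-YB1, had 48.5, higher than 71.9% of all genes. YUC12 (LOC_Os02g17230, chromosome 2), the third YUCCA gene considered here, had 14.5, just below the median of 15.9 over genes above 0. YUC9 thus stood near the top of the whole profile, while YUC11 and YUC12 were read at a middling level.

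All 14 genes of the YUCCA family were above 0, and 5 (35.7%) reached 10 normalised counts. Over all identifiers 73.2% were above 0 and 39.5% reached 10, so the family's share at 10 was not above that of all identifiers. YUC9 held 96.9% of the family's reads, and the other 13 genes summed to 330 normalised counts with a median of 5.38. YUC8 had 119 and YUC3 had 112, so both lay above YUC11 and YUC12 in read counts. YUC14 had 9.75, YUC13 had 7.24, YUC1 had 5.38, YUC4 had 4.55, YUC6 had 3.93, YUC7 had 3.66 and YUC5 had 1.10. YUC10 and YUC2 lay below 1, at 0.392 and 0.0623. YUC11 was therefore the fourth and YUC12 the fifth gene of the family by reads, and together they held under 1% of its reads (0.448% and 0.134%).

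**Figure D1:**
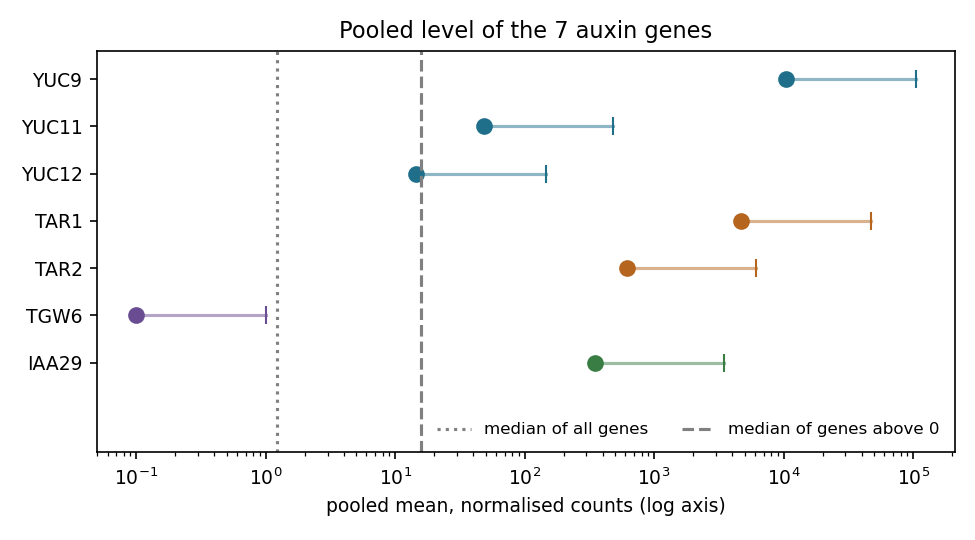
Pooled mean of normalised counts (log axis) of the 7 genes, as points, with a line up to the highest mean that any single group of 3 samples could have had (10 times the pooled mean). YUC9 at 10488 and TAR1 at 4713 lie far right of the medians of all genes (1.23, dotted) and of genes above 0 (15.9, dashed), and TGW6 at 0.0997 lies left of both.

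TGW6, reported in rice to split a stored auxin-glucose compound into free auxin and to affect grain weight, was scarcely read. Whether it acts in the grain was not tested. TGW6 (LOC_Os06g41850, chromosome 6) averaged 0.0997 normalised counts over the libraries. This value can be written in exactly 1 way as whole reads of the 30 libraries: 4 reads in all, 2 in each of 2 libraries, and none in the other 28. The exact Poisson interval (95%) of 4 reads runs from 1.09 to 10.2 reads and covers counting error only. TGW6 lay below the 0.181 normalised counts that 3 reads in the shallowest library would give. That limit is for a count of 0, whereas TGW6 had 4 reads. They came from libraries with size factors (relative depths) of 1.20 and 1.51, where a read adds less. The libraries carry no label, so the 4 reads cannot be placed in a genotype or condition. Of the genes above 0, 15.2% were lower than TGW6.

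The same reading into whole reads was possible for 3 genes of the auxin lists described below, all with values below 0.15. YUC2 had 3 reads in 2 libraries, ARF20 had 3 reads in 3 libraries and the conjugating enzyme gene GH3-12 had 2 reads in 2 libraries. For these genes, as for TGW6, expression in the caryopsis was at the limit of what the 30 libraries could detect.

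IAA29 (LOC_Os11g11430, chromosome 11), of the Aux/IAA repressor family, had 346 normalised counts and so exceeded 90.0% of the identifiers. It was the fourth of the 30 Aux/IAA genes measured, after IAA21 at 752, IAA10 at 698 and IAA17 at 522. The median of the Aux/IAA genes was 18.9, and the lowest was IAA28 at 0.859. IAA28 and IAA27, the identifiers directly before IAA29 on chromosome 11, had 0.859 and 2.39 normalised counts. Of these 3 neighbouring Aux/IAA genes, only IAA29 exceeded 10 normalised counts.

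A pooled mean also bounds what any group can have held, taking the 30 libraries to be the 30 samples. If every read of a gene came from 1 group of 3 samples, that group's mean would be 10 times the pooled mean, and if all came from 1 growing condition, that condition's mean would be 2 times the pooled mean. No group can therefore have averaged more than 0.997 normalised counts of TGW6, 145 of YUC12 or 485 of YUC11. Under either condition, heat or normal, the mean can have been at most 29.0 for YUC12 and 97.0 for YUC11. For IAA29 the bound is 3463 in a group and 693 in a condition, and for TAR2 it is 6159 and 1232. The mean of TGW6 was thus below 1 normalised count in each of the 10 groups, the wild type under heat and under normal growth included. At the other end, the highest group of YUC9 had at least 10488 and that of TAR1 at least 4713.

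The counting error of these means was small for all but TGW6. A single read added 0.0203 to 0.0605 normalised counts, depending on the library, since the size factors (relative library depths) ran from 0.551 to 1.64. The libraries fell into 20 deeper ones, with size factors of 1.09 or more, and 10 shallower ones, with 0.741 or less. How far the reads of a gene came from either set is not known from a pooled mean. YUC9 therefore rests on 173438 to 517322 reads and TAR1 on 77935 to 232459. TAR2 rests on 10186 to 30382 reads, IAA29 on 5727 to 17081, YUC11 on 803 to 2393 and YUC12 on 241 to 716. The counting error was at most 0.240% of the value for YUC9 and 0.358% for TAR1. It was at most 3.53% for YUC11 and 6.45% for YUC12. Each gene differed from the next in the order by at least 15.3 times the joint counting error. The spread between samples is unknown and enters none of these values.

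The genes around the 7 in identifier number, which runs along the chromosome, ranged from 0 to 6567 normalised counts. YUC9 stood alone: the 2 identifiers before it were listed at 0, and the 2 after it had 0.389 and 0.0618 normalised counts. The next one, YUC10, also of the YUCCA family, had 0.392. IAA29 and TAR2 also had more reads than all 4 of their neighbours, which reached at most 50.0 and 563. TAR1 had more than 3 of its 4, the exception being LOC_Os05g07700 at 6567, which the files do not name. YUC11 had fewer reads than all 4 of its neighbours (60.4 to 254), and YUC12 had fewer than 3 of 4. TGW6 had fewer than 3 of 4, which reached 85.7 at LOC_Os06g41860. Of the 28 neighbours, 17 reached 10 normalised counts and 4 were listed at 0. Over all identifiers 39.5% reached 10 and 26.8% were at 0.

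**Figure D2:**
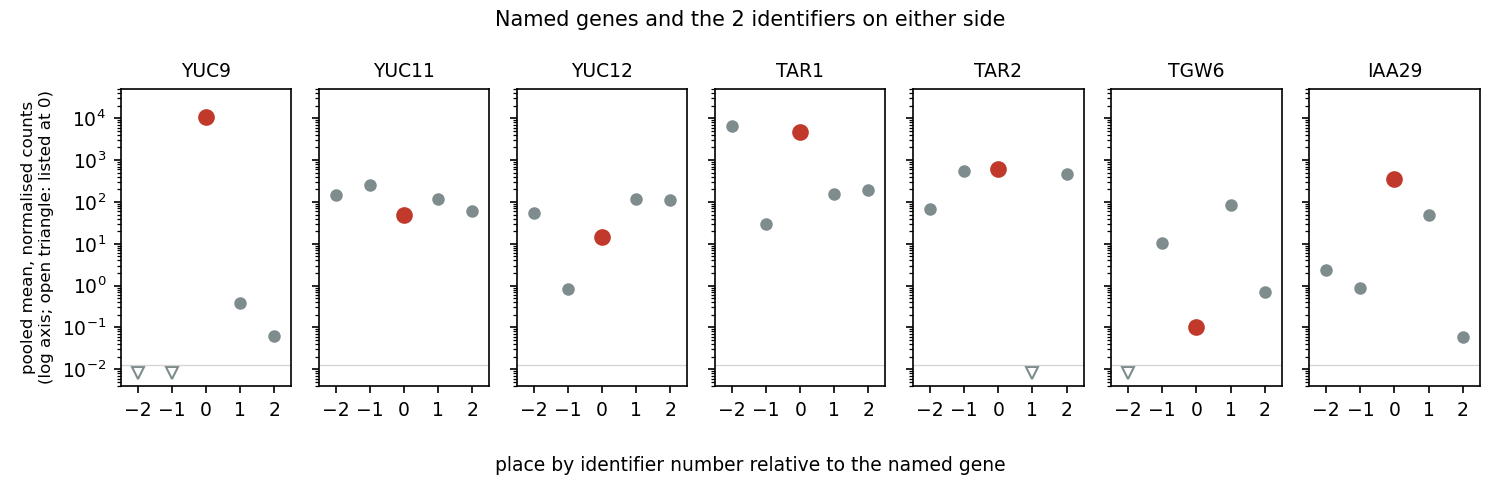
Pooled mean of normalised counts (log axis) of each of the 7 genes (red, place 0) and of the 2 gene identifiers on either side by number (grey), with identifiers listed at 0 as open triangles. YUC9 at 10488 stands among neighbours of at most 0.389, and YUC11 at 48.5 lies below all 4 of its neighbours.

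The other genes of auxin supply and response were read from 8 lists of known genes with 111 measured loci. These lists were also chosen with earlier results of these data known. All 111 were above 0, and 77 (69.4%) reached 10 normalised counts, with a median of 63.7. Over all identifiers 73.2% were above 0 and 39.5% reached 10. Of the 40831 genes above 0, 22056 reached 10. Without the 6 of the 7 genes that stand in these lists the median was 61.2 and 71 of 105 reached 10. The share of a list's reads held by its highest gene ran from 22.1% in the repressors to 96.9% in the YUCCA family. It was high in the lists of 2 genes, at 88.4% for TAR1 and 87.8% for the receptor AFB2. In a list of 2 the higher gene holds the larger part by construction, but how large a part is not fixed. Whether these lists hold every gene of their class was not checked, so the shares are of the listed genes only.

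Tryptophan supply was well read. Of 6 genes, all 6 reached 10 and 5 reached 100 normalised counts, against 39.5% and 21.4% of all identifiers. TSB1, for the beta subunit of tryptophan synthase, had 4220 and held 69.6% of the reads of the list. OASA1, for the alpha subunit of anthranilate synthase, had 872, TSB2 had 607 and OASB2, for a beta subunit of anthranilate synthase, was the lowest at 24.8.

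Of the 2 receptor genes listed, AFB2 had 1794 normalised counts and TIR1 had 250. Of the 25 response factor genes, 22 (88.0%) reached 10 normalised counts and 16 (64.0%) reached 100, with a median of 185. Over all identifiers 39.5% and 21.4% did so. ARF24 at 1789, ARF14 at 1021 and ARF23 at 790 were the highest, and ARF20 at 0.0739 was the lowest. ARF24 held 22.9% of the reads of the list. Of the 30 Aux/IAA genes, 22 (73.3%) reached 10 and 8 (26.7%) reached 100, against the same 39.5% and 21.4%. The highest, IAA21, held 22.1% of the reads of this list.

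Of the 18 transport genes, 9 (50.0%) reached 10 normalised counts, against 39.5% of all identifiers. All 18 were above 0, and their median of 10.7 lay below the 15.9 over genes above 0. The auxin importers AUX2 and AUX1 had 701 and 633, the exporter PIN1b (PIN1A in the RefSeq table) had 195 and AUX5 was the lowest at 0.335. In the conjugation and oxidation list DAO, whose enzyme oxidises auxin, had 2816. GH3-3 and GH3-8, of the family that joins auxin or other acids to amino acids, had 2250 and 1467. The lowest of these 14 was GH3-12 at 0.0711. Not every GH3 enzyme acts on auxin, and which of those listed do was not tested, so these counts are not all for removal of auxin.

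**Figure D3:**
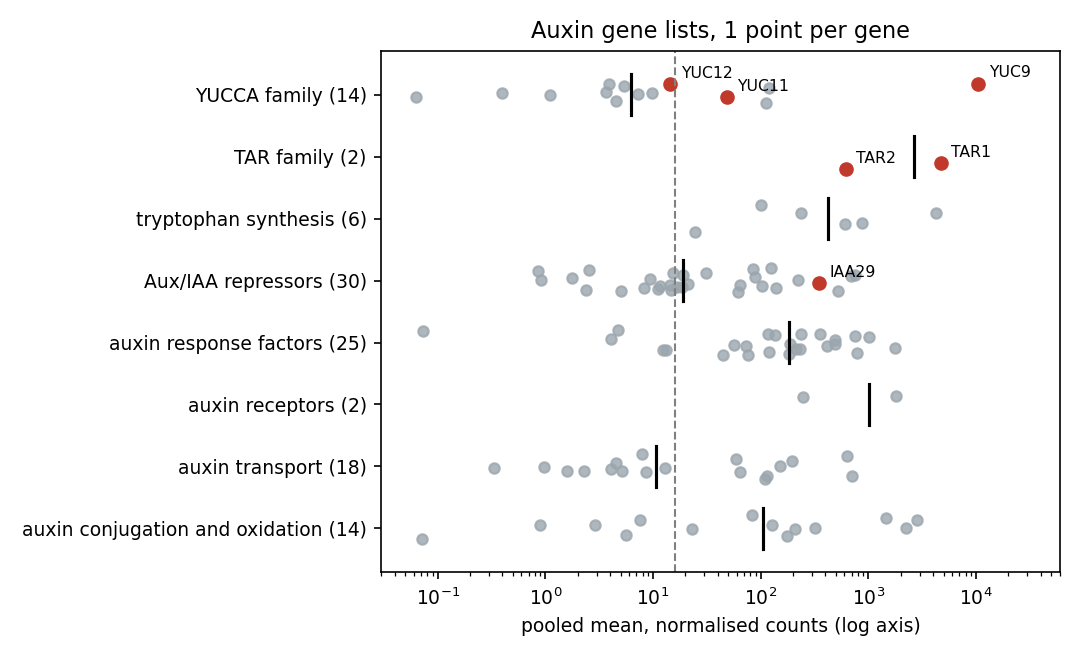
Pooled mean of normalised counts (log axis) of each gene in the 8 auxin lists, 1 point per gene, with the number measured in brackets, the list median as a black bar and 6 of the 7 genes in red (TGW6 stands in no list). YUC9 at 10488 lies apart from the other 13 YUCCA genes, the next being YUC8 at 119, and the dashed line is the median of genes above 0 (15.9).

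**Figure D4:**
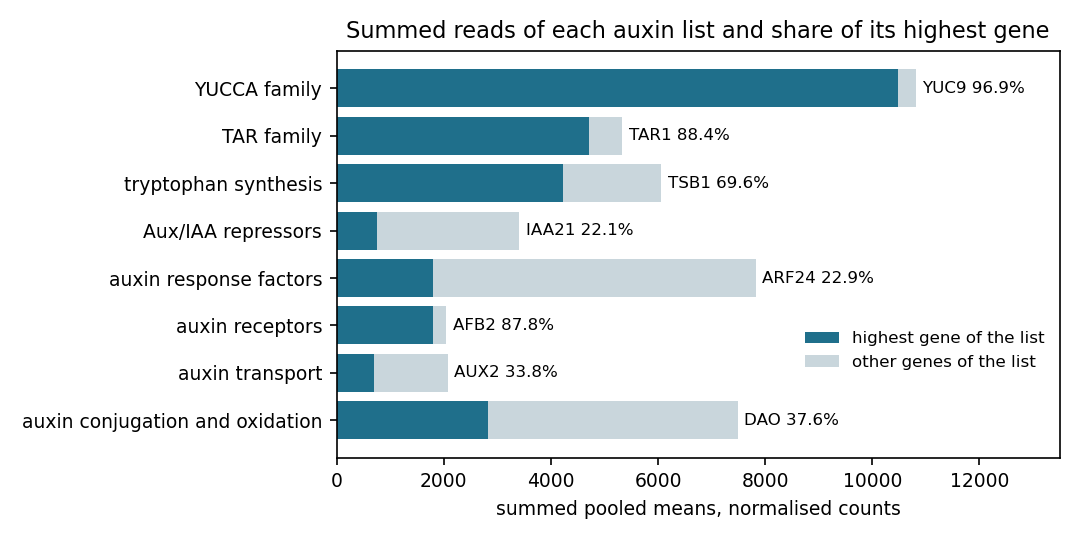
Sum of the pooled means of each auxin list in normalised counts, with the part of its highest gene in dark blue and that gene's share written beside the bar. YUC9 holds 96.9% of the YUCCA reads. TAR1 holds 88.4% of the reads of the 2 TAR genes listed, and AFB2 87.8% of those of the 2 receptors listed. IAA21 and ARF24 hold 22.1% and 22.9% in their lists.

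In summed read counts the YUCCA list held 10818 normalised counts, the response factors 7821, conjugation and oxidation 7486, tryptophan synthesis 6062, the TAR pair 5329, the repressors 3409, transport 2076 and the receptors 2043. These sums follow the number of genes listed and their lengths as well as their expression. In the 2 lists of 14 genes, the highest gene held 96.9% of the list's reads for YUCCA (YUC9) and 37.6% for conjugation and oxidation (DAO).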

How the data were processed

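RNA-seq of 30 rice caryopsis samples was analysed from the tables the authors deposited. Per the submitters' processing notes, CASAVA 1.7, HISAT2 2.0.5 and DESeq2 were used. Not given in the sources used here were the read counter, genome build, annotation and strand setting, so reads of overlapping genes or close copies may not be told apart. The 8 tables, named for 8 comparisons, were identical. Per the file headers, their columns were the gene identifier and baseMean, which is treated as a signal the authors deposited: the mean over libraries of counts divided by size factors. 0 columns held values per sample, so no test was run.

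The members and gene lists were chosen with earlier results of these data known. The rule named the 7 members, the whole YUCCA family, the 2 identifiers on either side of each member and, in each other list, the 3 highest and the lowest gene. Genes named outside it are the markers and, as side-by-side pairs chosen after their values were seen, IAA11, IAA12, IAA30 and IAA31. Identifiers were paired with symbols from general knowledge. The RefSeq gene table of assembly ASM3414082v1 held a matching symbol, on the same chromosome and within 0.1 of its relative length, as symbol or synonym for 77 of 112 list loci, and a symbol at another place for 0. Synonyms are ambiguous in the PIN genes: the locus named PIN1b here carries the RefSeq symbol PIN1A, with PIN1b as a synonym. Of the 7 members it held TAR2 and IAA29. The other 5 members, and 35 list loci in all, among them every YUCCA gene but YUC1, rest on general knowledge. So do other genes named in the text, such as TIR1, AFB2, TSB1, TSB2, AUX1, AUX2, AUX5, GH3-3, GH3-12, ARF20, IAA27, IAA28 and the markers GBSSI, LHCB1, RBCS2, RBCS3 and Ole16. IAA5 is not analysed here.

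The worth of 1 read per library was taken from the lowest values, up to 3.5 times the lowest, leaving out any that smaller steps add up to within 1e-11. 30 steps were found. Values below 0.15 were then written as whole reads within 2e-15. On pooled means of 8000 genes made with known size factors, 30 steps were found and the reads of 300 of 300 low genes were recovered. Those size factors were spread evenly on a log scale, not in a deeper and a shallower set as here. The low genes tried did not reach up to the bound of 0.15. Python 3.11.15, numpy 2.4.6, pandas 2.3.3, scipy 1.17.1 and matplotlib 3.10.9 were used.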

Additional observations from a re-analysis of the deposited data

How the results depend on the processing

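The median share of genes lower than the 7 members was 90.0% over all identifiers, 86.4% over genes above 0 and 74.7% over genes of at least 10 normalised counts. Over the last set YUC11 lay above 29.0% and YUC12 above 6.02% of genes, against 71.9% and 62.9% over all. The count of auxin list genes read was 77 (69.4%) at 10 normalised counts and 49 (44.1%) at 100. Over all identifiers the shares were 39.5% and 21.4%. In the YUCCA family the count was 5 at 10, 14 above 0 and 0 with only loci found by symbol, since YUC1 alone was found. The members' levels were the same in each of the 8 tables, and the reads of TGW6 were 4 with steps told apart within 1e-12 or 1e-10. Levels per coding length were not computed for want of sequence lengths. Leaving out replicates was not run, because it needs values per sample. No paired analysis was possible because a single mean over libraries has no replicates to pair. A pooled mean limits every value: a change in 1 group is diluted over 30 libraries.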

Other observations

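Several auxin genes that lie side by side by identifier number had unlike read counts. IAA30 and IAA31 on chromosome 12 had 103 and 11.7 normalised counts, and IAA11 and IAA12 on chromosome 3 had 5.04 and 19.1. YUC13 and YUC14 on chromosome 11, with 1 identifier between them, were closer, at 7.24 and 9.75. None of these pairs was divided by length, and close copies may share reads.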
